A study of Mus musculus with 6 samples.

Results

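Genes of endoplasmic reticulum (ER) stress and protein folding were followed in mouse hippocampus as a list of 33 genes, found by symbol among the 32285 genes of the count matrices. Of these, 25 belong to the ER and its stress response and 8 are cytosolic chaperones, and both sets are described apart. The symbol Ddit3 stands for 2 gene IDs; ENSMUSG00000025408 was used, and the other ID had 0 UMIs in every class below. The samples were 6 single-cell RNA libraries of hippocampal tissue from mice 6 months old, in 3 groups of 2. In the group 5xFAD_Ab3FTnAu, 5×FAD mice received Aβ3FTnAu; in 5xFAD_PBS, 5×FAD mice received PBS; in WT_PBS, PBS went to wild-type littermates. Human transgenes for mutant amyloid precursor protein and presenilin, driven by a neuronal Thy1 promoter, give 5×FAD mice amyloid-β plaques. The series title describes Aβ3FTnAu as a nanostructure of protein and gold directed at plaques; its dose and route are not given in the sources used here. Since no source states that both samples in a group are from different animals, p-values measure the spread between samples, which may be technical.

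The ER folds secreted and membrane proteins with the help of chaperones such as BiP (Hspa5), the lectins calnexin and calreticulin, and protein disulfide isomerases. When unfolded proteins build up, the sensors IRE1 (Ern1), PERK (Eif2ak3) and ATF6 start the unfolded protein response, in which the factors XBP1, ATF4 and the cleaved form of ATF6 raise chaperone, folding and degradation genes. Cytosolic chaperones of the HSP70 and HSP90 families answer instead to heat shock factor. In brains with amyloid, both systems are widely studied as markers of protein stress. The counts come from the 3′ ends of transcripts and cannot tell spliced from unspliced Xbp1 mRNA.

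Per sample, the matrices held 5196 to 14993 barcodes and 32528417 to 76780861 UMIs, of which 4823 to 13640 cells passed the filters. Cells were assigned from marker UMIs to 4 classes. The samples held 3557 to 10877 neuron-like, 256 to 830 oligodendrocyte-like, 55 to 708 astrocyte-like and 36 to 318 microglia-like cells. The glial classes were shallow, with median UMIs per cell of 1146.5 to 1303 in microglia-like, 1196 to 1456 in oligodendrocyte-like and 1359 to 1998 in astrocyte-like cells, against 4236 to 5256 over all cells kept. Each glial class had some of its own markers among its 10 most specific genes; those of the neuron-like class were markers of no class. Library pairs shared 9 to 45 barcodes. Barcodes with no mitochondrial UMI made up 66.6% and 65.8% of the 5xFAD_Ab3FTnAu samples, 22.7% and 17.9% of 5xFAD_PBS and 57.4% and 30.1% of WT_PBS. The WT_PBS pair stood apart in neuron-like cells: the median absolute log2 ratio between its 2 samples, over all genes tested, was 0.25, against 0.11 in each 5×FAD group. Of the 32 listed genes tested there, 28 were higher in WT_PBS sample 1 than in WT_PBS sample 2.

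Many promoters of the unfolded protein response hold the ER stress response element (ERSE), which ATF6 and XBP1 bind together with NF-Y. It was chosen for display after the fold changes below were known, since several of its carriers were among the lowest. Its part in the fold changes was not tested. In neuron-like cells Sdf2l1, Xbp1 and Pdia3, which are not among its carriers, were also among the lowest, while its carrier Dnajc3 was not. The motif was searched on both strands as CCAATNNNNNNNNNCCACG, from 250 bases before to 50 bases after each gene start, in RefSeq promoters of build GRCm38.p6; 22 of the 25 ER genes and 5 of the 8 cytosolic genes had an entry. It was found in 8 of the 22 ER genes (Hspa5, Hsp90b1, Calr, Canx, Pdia6, Dnajc3, Creld2 and Syvn1), in 0 of the 5 cytosolic genes, and in 37 of all 27025 genes with a promoter, 0.137%. The related ERSE-II, searched as ATTGG, any 1 base, then CCACG, was found in Herpud1 and Dnajb11 and in 0.0444% of all genes. The lines below are a selection, and the matches of Dnajc3, Creld2, Syvn1 and Dnajb11 are not shown. Each line reads 5′ to 3′ along the gene's own strand, and capitals mark the fixed letters of the motif, CCAAT and CCACG or their reverse complements ATTGG and CGTGG. All matches shown lie before the RefSeq start; that of Hspa5 is inside an exon of a longer GENCODE vM21 model.
Hspa5, chr2:34772020-34772048, plus strand: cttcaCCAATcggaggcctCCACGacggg
Hsp90b1, chr10:86705633-86705661, minus strand: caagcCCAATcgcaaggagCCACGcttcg
Hsp90b1, chr10:86705528-86705556, minus strand: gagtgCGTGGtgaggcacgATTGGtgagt
Calr, chr8:84847070-84847098, minus strand: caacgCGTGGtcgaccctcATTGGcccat
Canx, chr11:50325795-50325823, minus strand: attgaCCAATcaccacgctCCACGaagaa
Pdia6, chr12:17266486-17266514, plus strand: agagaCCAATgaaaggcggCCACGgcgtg
Herpud1, chr8:94386372-94386392, plus strand: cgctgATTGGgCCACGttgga
Hsp90b1 holds 2 matches, in opposite directions, and is shown on a line for each. A match is a description of the letters and does not show that a factor binds there. The heat shock element, searched on both strands as GAA, TTC and GAA (or TTC, GAA and TTC) with any 2 bases between neighbouring units, was found in 1 of the 5 cytosolic genes, Hsph1, in 0 of the 22 ER genes and in 0.662% of all genes. The core of the unfolded protein response element, TGACGTGG, was found in 0 of the 27 listed genes with an entry and in 0.714% of all genes.

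In neuron-like cells, most ER chaperone and folding genes had their lowest values in 5xFAD_Ab3FTnAu. Levels are given as CPM, the UMIs of a gene per 1000000 UMIs of the class in that sample, and 1 UMI was worth 0.0146 to 0.0345 CPM here. The 25 ER genes summed to 844 and 851 CPM in 5xFAD_Ab3FTnAu, against 946 and 1111 CPM in 5xFAD_PBS and 1167 and 924 CPM in WT_PBS. Both 5xFAD_Ab3FTnAu sums lay below the other 4, and the 2 WT_PBS sums spanned those of 5xFAD_PBS on the high side and the low side. For 5xFAD_Ab3FTnAu against 5xFAD_PBS, the median log2 fold change over the 25 ER genes was -0.41, beside -0.02 over all genes tested, and 20 of the 25 were negative.

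**Figure D1:**
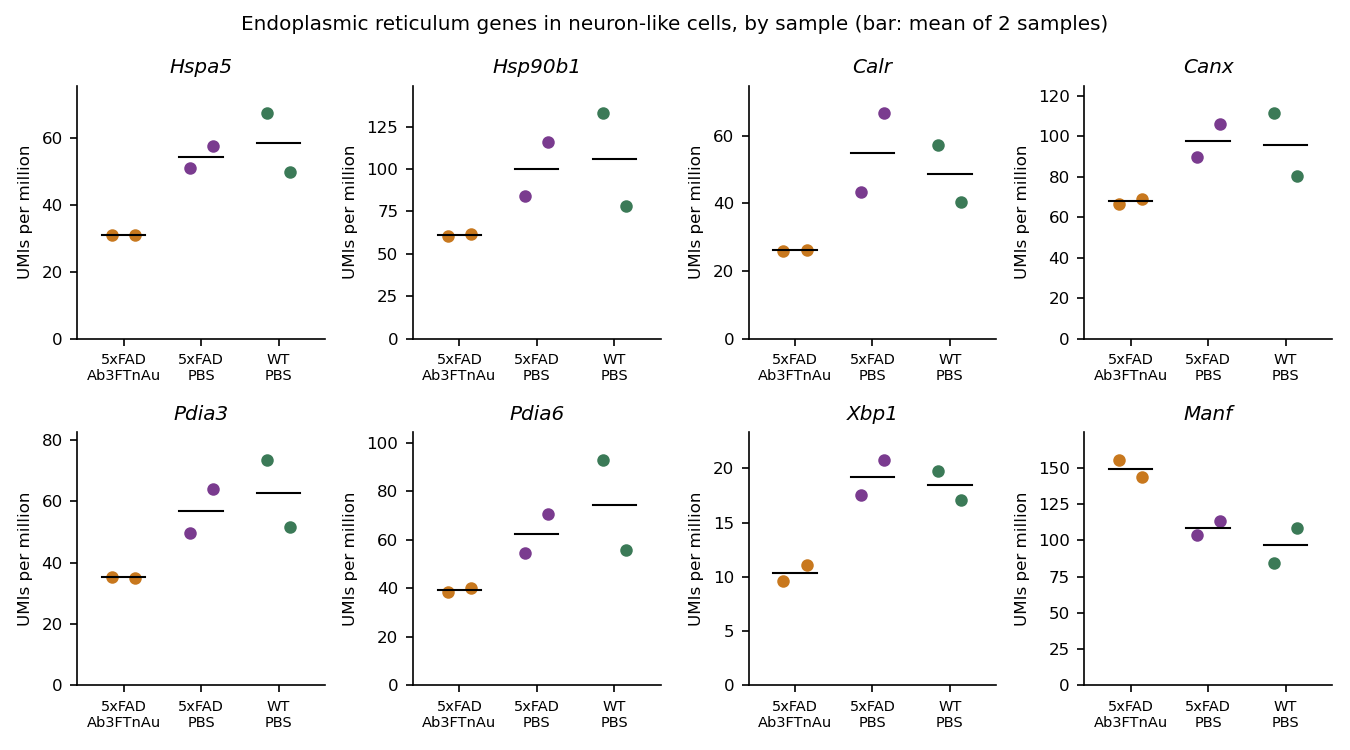
CPM in neuron-like cells for 8 ER genes, 1 point per sample and a bar at the mean of the 2 samples of a group. In 7 of the 8 panels both 5xFAD_Ab3FTnAu points lie below the other 4, and in the panel of Manf they lie above them. The 8 genes were picked for display, so this count is not a result about the whole ER list. In other ER genes, such as Atf6, Herpud1 and Pdia4, the 5xFAD_Ab3FTnAu values were not both below the other 4.

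Among the chaperones, Hspa5, which encodes BiP, the ER HSP70, had 31.0 and 31.0 CPM in 5xFAD_Ab3FTnAu, against 51.1 and 57.7 CPM in 5xFAD_PBS and 67.5 and 49.8 CPM in WT_PBS. Both 5xFAD_Ab3FTnAu values were below the other 4, and the 5xFAD_PBS and WT_PBS values overlapped. Its log2 fold change was -0.82 ± 0.15 (SE) for 5xFAD_Ab3FTnAu against 5xFAD_PBS (edgeR adjusted p = 0.0832), -0.95 ± 0.15 against WT_PBS (edgeR adjusted p = 0.0507) and -0.13 ± 0.15 for 5xFAD_PBS against WT_PBS. Hsp90b1, the ER HSP90 also called GRP94, had 60.4 and 61.6 CPM in 5xFAD_Ab3FTnAu, against 84.3 and 116 CPM in 5xFAD_PBS and 133 and 78.5 CPM in WT_PBS. It was again lowest in the 5xFAD_Ab3FTnAu samples, with a log2 fold change of -0.72 ± 0.25 against 5xFAD_PBS (edgeR adjusted p = 0.187). Hsp90b1 overlaps the gene Gm15344 on the same strand. Hyou1, which encodes an ER protein related to HSP70, had a log2 fold change of -0.19 ± 0.17 against 5xFAD_PBS: both 5xFAD_Ab3FTnAu values were below both 5xFAD_PBS values, and the WT_PBS values lay on either side of them.

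The lectin chaperones calreticulin and calnexin hold newly made glycoproteins. Calr had 25.9 and 26.2 CPM in 5xFAD_Ab3FTnAu, against 43.3 and 66.7 CPM in 5xFAD_PBS and 57.1 and 40.4 CPM in WT_PBS, a log2 fold change of -1.08 ± 0.24 for 5xFAD_Ab3FTnAu against 5xFAD_PBS (edgeR adjusted p = 0.0981). Canx had 66.4 and 69.0 CPM in 5xFAD_Ab3FTnAu, against 89.5 and 106 CPM in 5xFAD_PBS and 111 and 80.1 CPM in WT_PBS, a log2 fold change of -0.54 ± 0.16 in the same comparison. Both genes were lowest in the 2 5xFAD_Ab3FTnAu samples. The disulfide isomerase Pdia3, which works with these lectins, had 35.4 and 35.1 CPM in 5xFAD_Ab3FTnAu, against 49.7 and 64.2 CPM in 5xFAD_PBS and 73.7 and 51.5 CPM in WT_PBS. Pdia6 had 38.3 and 40.0 CPM in 5xFAD_Ab3FTnAu, against 54.3 and 70.5 CPM in 5xFAD_PBS and 93.0 and 55.5 CPM in WT_PBS. For both isomerases the 5xFAD_Ab3FTnAu values were below the other 4, with log2 fold changes of -0.70 ± 0.19 and -0.68 ± 0.24 against 5xFAD_PBS. Pdia4 had 6.44 and 8.11 CPM in 5xFAD_Ab3FTnAu, against 10.2 and 8.78 CPM in 5xFAD_PBS and 13.1 and 7.83 CPM in WT_PBS; its 5xFAD_Ab3FTnAu values were below both 5xFAD_PBS values and on either side of the lower WT_PBS value.

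Of the transcription factors, Xbp1, whose spliced form drives ER chaperone and degradation genes, had 9.59 and 11.1 CPM in 5xFAD_Ab3FTnAu, against 17.5 and 20.8 CPM in 5xFAD_PBS and 19.8 and 17.1 CPM in WT_PBS. Both 5xFAD_Ab3FTnAu samples were below the other 4, and its log2 fold change of -0.90 ± 0.16 against 5xFAD_PBS came with the lowest adjusted p of the listed genes in that comparison (edgeR adjusted p = 0.0829). Atf4, the factor made when PERK slows translation, had 6.47 and 6.88 CPM in 5xFAD_Ab3FTnAu, against 8.05 and 11.0 CPM in 5xFAD_PBS and 15.2 and 9.40 CPM in WT_PBS, a log2 fold change of -0.52 ± 0.27 against 5xFAD_PBS. Atf6 differed little between samples, with 139 and 133 CPM in 5xFAD_Ab3FTnAu, against 137 and 143 CPM in 5xFAD_PBS and 141 and 127 CPM in WT_PBS. Ddit3, the stress factor CHOP downstream of ATF4, had 2.37 and 3.19 CPM in 5xFAD_Ab3FTnAu, against 1.69 and 3.42 CPM in 5xFAD_PBS and 2.97 and 2.10 CPM in WT_PBS, and its groups overlapped; the gene overlaps Mars on the other strand. Trib3, a target of ATF4 and CHOP, was near the detection limit with 12 and 19 UMIs in 5xFAD_Ab3FTnAu, against 7 and 14 UMIs in 5xFAD_PBS and 25 and 14 UMIs in WT_PBS.

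The sensor kinase genes were ordered otherwise than the chaperones. Ern1 had 25.7 and 31.5 CPM in 5xFAD_Ab3FTnAu, against 25.5 and 25.7 CPM in 5xFAD_PBS and 30.4 and 24.9 CPM in WT_PBS. Eif2ak3 had 23.6 and 27.5 CPM in 5xFAD_Ab3FTnAu, against 22.1 and 20.5 CPM in 5xFAD_PBS and 23.1 and 20.2 CPM in WT_PBS. For both genes the lowest value was that of WT_PBS sample 2, and for Eif2ak3 both 5xFAD_Ab3FTnAu values were above the other 4. The log2 fold changes for 5xFAD_Ab3FTnAu against 5xFAD_PBS were 0.15 ± 0.15 and 0.25 ± 0.14. Among the co-chaperones, Sdf2l1, a partner of BiP, had 1.78 and 2.36 CPM in 5xFAD_Ab3FTnAu, against 4.04 and 4.76 CPM in 5xFAD_PBS and 8.55 and 4.60 CPM in WT_PBS, a log2 fold change of -1.09 ± 0.34 against 5xFAD_PBS and -1.71 ± 0.34 against WT_PBS. Its 5xFAD_Ab3FTnAu values were the lowest. The J-domain proteins Dnajb9, Dnajb11 and Dnajc3 had log2 fold changes of -0.60 ± 0.27, -0.41 ± 0.28 and -0.20 ± 0.12 against 5xFAD_PBS. Creld2, a secreted ER stress gene, had 2.12 and 2.38 CPM in 5xFAD_Ab3FTnAu, against 3.45 and 3.97 CPM in 5xFAD_PBS and 6.51 and 3.70 CPM in WT_PBS, with both 5xFAD_Ab3FTnAu values below the rest.

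Manf, which encodes another protein secreted under ER stress, had its groups in the opposite order, with 156 and 144 CPM in 5xFAD_Ab3FTnAu, against 104 and 114 CPM in 5xFAD_PBS and 84.7 and 109 CPM in WT_PBS. Both 5xFAD_Ab3FTnAu values were above the other 4, and the log2 fold change was 0.45 ± 0.15 against 5xFAD_PBS (edgeR adjusted p = 0.166). The annotated Manf model is 53668 bases long (GRCm38 chr9:106838312-106891979, minus strand); it overlaps Rbm15b on the same strand and Dcaf1 on the other, so its UMIs may include those of a neighbour. In the degradation branch, the ubiquitin ligase pair Sel1l and Syvn1 had log2 fold changes of -0.24 ± 0.10 and -0.63 ± 0.22 against 5xFAD_PBS. Edem1, which marks misfolded glycoproteins, and Herpud1, a ligase cofactor, had -0.09 ± 0.16 and -0.07 ± 0.20.

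The 8 cytosolic genes did not show the low 5xFAD_Ab3FTnAu values of the ER genes. They summed to 157 and 165 CPM in 5xFAD_Ab3FTnAu, against 130.3 and 156 CPM in 5xFAD_PBS and 218 and 157 CPM in WT_PBS, with WT_PBS sample 1 the highest. The constitutive HSP70 gene Hspa8 had 34.9 and 37.7 CPM in 5xFAD_Ab3FTnAu, against 24.0 and 34.1 CPM in 5xFAD_PBS and 42.1 and 36.1 CPM in WT_PBS. The inducible HSP90 gene Hsp90aa1 had 31.2 and 32.0 CPM in 5xFAD_Ab3FTnAu, against 25.7 and 32.9 CPM in 5xFAD_PBS and 60.7 and 32.4 CPM in WT_PBS. The HSP90 gene Hsp90ab1, which is expressed at a steady level in most cells, had 67.2 and 64.1 CPM in 5xFAD_Ab3FTnAu, against 57.9 and 65.6 CPM in 5xFAD_PBS and 91.6 and 66.4 CPM in WT_PBS. In all 3 the highest value was that of WT_PBS sample 1. Hspa8 had its lowest values in the 2 5xFAD_PBS samples, and for Hsp90aa1 the other 5 samples lay between 25.7 and 32.9 CPM. The near-identical heat shock genes Hspa1a and Hspa1b share sequence, so UMIs may be split between them. Hspa1a had 8 and 17 UMIs in 5xFAD_Ab3FTnAu, against 6 and 16 UMIs in 5xFAD_PBS and 67 and 20 UMIs in WT_PBS, and Hspa1b had 12 and 7 UMIs in 5xFAD_Ab3FTnAu, against 3 and 26 UMIs in 5xFAD_PBS and 111 and 18 UMIs in WT_PBS. Dnajb1, a J-domain partner of HSP70, had 2.59 and 3.16 CPM in 5xFAD_Ab3FTnAu, against 2.80 and 3.15 CPM in 5xFAD_PBS and 1.62 and 2.77 CPM in WT_PBS, with overlapping groups. Hsph1 had 20.7 and 27.7 CPM in 5xFAD_Ab3FTnAu, against 19.6 and 18.6 CPM in 5xFAD_PBS and 19.8 and 17.9 CPM in WT_PBS, a log2 fold change of 0.33 ± 0.17 for 5xFAD_Ab3FTnAu against 5xFAD_PBS. The small heat shock gene Hspb1 had 22 UMIs over the 6 samples and was not tested.

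By edgeR's quasi-likelihood test on all 6 samples, with Benjamini-Hochberg adjusted p under 0.05, 0 of the 32 listed genes tested in neuron-like cells were called in any of the 3 comparisons. Over all genes the share called was also 0% for 5xFAD_Ab3FTnAu against 5xFAD_PBS, 0% for 5xFAD_Ab3FTnAu against WT_PBS and 0% for 5xFAD_PBS against WT_PBS. At an unadjusted p under 0.05, 11 of the 32 passed in the first comparison (10 lower), with a background of 21.8% of all genes, 18 in the second (17 lower; background 34.2%) and 5 in the third (5 lower; background 6.37%). DESeq2 called Hspa5, Calr and Xbp1 lower in 5xFAD_Ab3FTnAu than in 5xFAD_PBS, with 8.24% of all genes called. It called 11 listed genes against WT_PBS, 10 lower and Manf higher (background 18.5%), and 0 for 5xFAD_PBS against WT_PBS (background 0.18%). Both 5xFAD_Ab3FTnAu samples were below both 5xFAD_PBS samples in 17 of the 32 listed genes, all of them ER genes, beside 34.1% of all genes tested.

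The number of calls in neuron-like cells, for all genes as for the listed ones, differed with the samples in the fit. Fitted on the 4 5×FAD samples alone, a comparison added after the data were seen, edgeR called 14 listed genes lower in 5xFAD_Ab3FTnAu than in 5xFAD_PBS, with 15.5% of all genes called lower, and 1, Manf, higher, with 15.6% called higher. The 14 were Hspa5, Hsp90b1, Calr, Canx, Pdia3, Pdia6, Xbp1, Atf4, Sdf2l1, Dnajb9, Dnajb11, Creld2, Sel1l and Syvn1. The same 15 genes were called when either WT_PBS sample was left out of the fit of all groups. Without WT_PBS sample 2, 17 listed genes were called for 5xFAD_PBS against WT_PBS, beside 30.7% of all genes, and 23 for 5xFAD_Ab3FTnAu against WT_PBS, beside 49.2%. Without WT_PBS sample 1, 0 were called in the first of these and 8 in the second, beside 0.0384% and 18.9% of all genes, and the 8 were all among the 23. In the fits of the 4 samples compared alone, 0 listed genes and 0 of all genes were called in both comparisons with WT_PBS.

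The share of barcodes with no mitochondrial UMI also differed between the groups. Among neuron-like cells with no mitochondrial UMI, the ER genes summed to 842 and 852 CPM in 5xFAD_Ab3FTnAu, against 910.2 and 1081 CPM in 5xFAD_PBS and 1207 and 917 CPM in WT_PBS. Among neuron-like cells with such a UMI they summed to 847 and 849 CPM in 5xFAD_Ab3FTnAu, against 955 and 1116 CPM in 5xFAD_PBS and 1132 and 926 CPM in WT_PBS. The 5xFAD_Ab3FTnAu sums were lowest in both sets, and the median log2 fold change over ER genes against 5xFAD_PBS was -0.39 in the first and -0.46 in the second. The 10 genes of tissue dissociation, such as Fos and Egr1, summed to 43.9 and 62.7 CPM in 5xFAD_Ab3FTnAu, against 63.4 and 66.0 CPM in 5xFAD_PBS and 76.4 and 65.8 CPM in WT_PBS; their part in the result was not tested.

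In oligodendrocyte-like cells, the myelin-forming class, the summed CPM of the listed ER genes was again lowest in 5xFAD_Ab3FTnAu. The genes summed to 1171 and 1276 CPM in 5xFAD_Ab3FTnAu, against 1451 and 1552 CPM in 5xFAD_PBS and 1503 and 1631 CPM in WT_PBS. Both 5xFAD_Ab3FTnAu sums were below the other 4. The median log2 fold change of the 22 ER genes tested was -0.46 against 5xFAD_PBS, beside -0.01 over all genes, and -0.43 against WT_PBS; for 5xFAD_PBS against WT_PBS it was 0.00342. The 10 genes of tissue dissociation were also lowest in 5xFAD_Ab3FTnAu in this class, at 40.2 and 50.7 CPM in 5xFAD_Ab3FTnAu, against 61.5 and 59.9 CPM in 5xFAD_PBS and 68.0 and 70.2 CPM in WT_PBS. The oligodendrocyte markers summed to 11730 to 12780 CPM in 5xFAD_Ab3FTnAu, 13520 to 14210 in 5xFAD_PBS and 12490 to 15530 in WT_PBS. The part of either in the result was not tested.

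**Figure D2:**
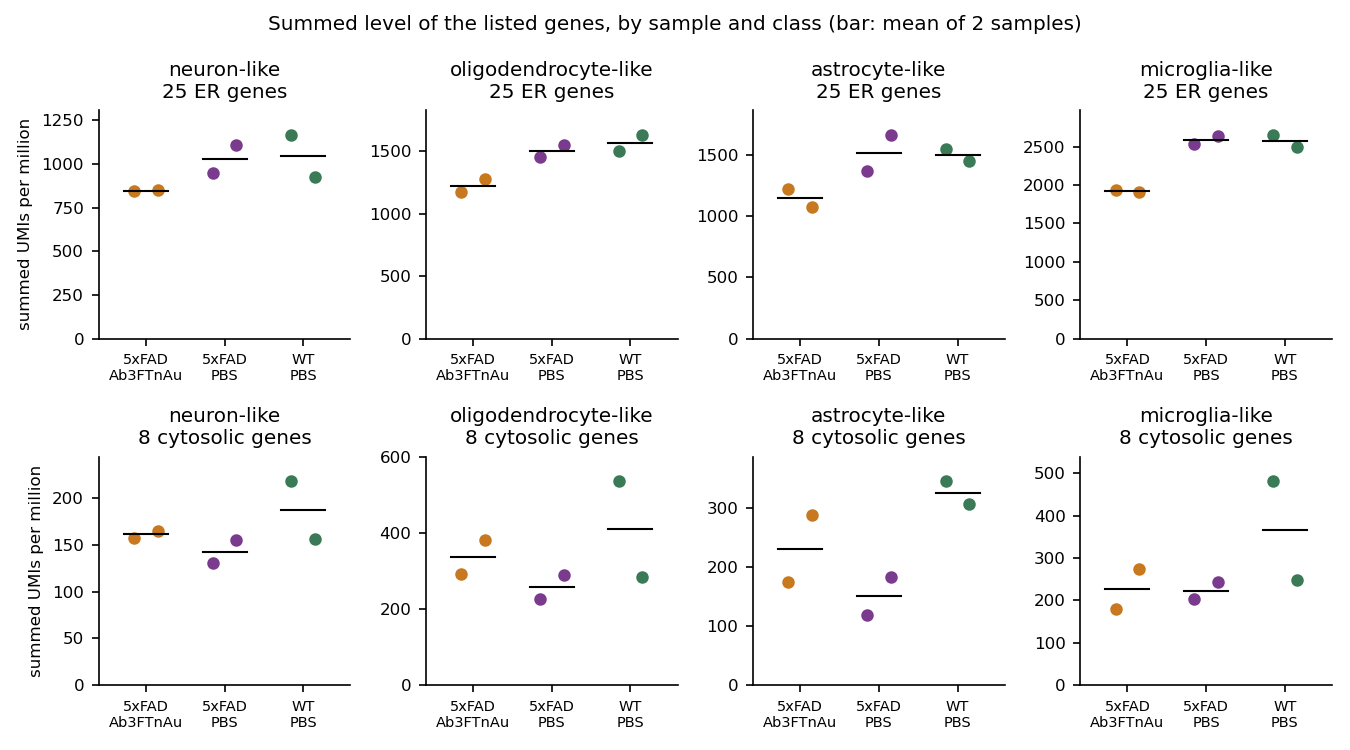
Summed CPM of the 25 ER genes (upper row) and the 8 cytosolic genes (lower row) in each class, 1 point per sample and a bar at the mean of the 2 samples. In the upper row both 5xFAD_Ab3FTnAu points are the lowest in each of the 4 classes; in the lower row WT_PBS sample 1 is the highest in each class.

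Hspa5 had 72.4 and 58.0 CPM in 5xFAD_Ab3FTnAu, against 107 and 95.8 CPM in 5xFAD_PBS and 85.2 and 132 CPM in WT_PBS in oligodendrocyte-like cells. Hsp90b1 had 150.1 and 138 CPM in 5xFAD_Ab3FTnAu, against 161 and 213 CPM in 5xFAD_PBS and 220.1 and 224 CPM in WT_PBS. Calr had 61.6 and 60.9 CPM in 5xFAD_Ab3FTnAu, against 89.3 and 125 CPM in 5xFAD_PBS and 66.9 and 99.2 CPM in WT_PBS. In all 3 the 5xFAD_Ab3FTnAu values were below the other 4, with log2 fold changes against 5xFAD_PBS of -0.71 ± 0.27, -0.44 ± 0.20 and -0.87 ± 0.27. Xbp1 had 2 and 11 UMIs in 5xFAD_Ab3FTnAu, against 20 and 30 UMIs in 5xFAD_PBS and 21 and 25 UMIs in WT_PBS, and Atf4 had 4 and 7 UMIs in 5xFAD_Ab3FTnAu, against 21 and 24 UMIs in 5xFAD_PBS and 21 and 17 UMIs in WT_PBS. In CPM, both factors were lowest in the 2 5xFAD_Ab3FTnAu samples, at 5.36 and 15.9 for Xbp1 and 10.7 and 10.1 for Atf4. Ddit3 had 32 UMIs over the 6 samples and was not tested.

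Cytosolic HSP90 genes had one high sample. Hsp90aa1 had 96.5 and 104 CPM in 5xFAD_Ab3FTnAu, against 78.9 and 82.2 CPM in 5xFAD_PBS and 189 and 85.4 CPM in WT_PBS in oligodendrocyte-like cells. Hsp90ab1 had 109.9 and 159 CPM in 5xFAD_Ab3FTnAu, against 76.6 and 116 CPM in 5xFAD_PBS and 215 and 109 CPM in WT_PBS, and Hspa8 had 64.3 and 91.3 CPM in 5xFAD_Ab3FTnAu, against 46.4 and 67.8 CPM in 5xFAD_PBS and 98.2 and 70.2 CPM in WT_PBS. WT_PBS sample 1 was the highest for all 3 and 5xFAD_PBS sample 1 the lowest. Without WT_PBS sample 1, the log2 fold change of Hsp90aa1 for 5xFAD_PBS against WT_PBS was -0.06, against -0.72 ± 0.28 with it. Hspa1a, Hspa1b and Dnajb1 had 4, 7 and 28 UMIs in all and were not tested.

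Of the 26 listed genes tested in oligodendrocyte-like cells, edgeR called 0 in each comparison, beside 0.0215% of all genes for 5xFAD_Ab3FTnAu against 5xFAD_PBS, 2.05% for 5xFAD_Ab3FTnAu against WT_PBS and 0.15% for 5xFAD_PBS against WT_PBS. At an unadjusted p under 0.05, 8, 7 and 3 listed genes passed, all lower, with backgrounds of 8.8%, 18.4% and 11.2%. DESeq2 called 0 listed genes in all 3, beside 0.0146%, 1.54% and 0.382% of all genes with an adjusted p. Both 5xFAD_Ab3FTnAu samples were below both 5xFAD_PBS samples in 15 of the 22 ER genes and in 0 of the 4 cytosolic genes, beside 19.2% of all genes. Calr was called lower in the fit of the 4 5×FAD samples alone, with the share of all genes given in the closing section. That section also counts the calls made with 1 sample left out, beside those of all genes. Over the settings run, the log2 fold change for 5xFAD_Ab3FTnAu against WT_PBS was -1.079 to -0.379 for Hspa5 and -1.075 to -0.358 for Pdia3. For 5xFAD_PBS against WT_PBS it was positive for Calr, at 0.16 to 0.80. It was negative for Dnajb11 (-1.074 to -0.242), Hsp90aa1 (-1.127 to -0.057) and Hsp90ab1 (-1.034 to -0.127). UMIs of the 15 neuron markers summed to 1264 to 1447 CPM in 5xFAD_Ab3FTnAu, 1037 to 1137 in 5xFAD_PBS and 1876 to 2226 in WT_PBS, with all 15 detected; their part in the result was not tested.

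In astrocyte-like cells, the support glia of the neuropil, the same direction was seen with fewer cells. The ER genes summed to 1217 and 1069.9 CPM in 5xFAD_Ab3FTnAu, against 1367 and 1661 CPM in 5xFAD_PBS and 1544 and 1450.4 CPM in WT_PBS, again with both 5xFAD_Ab3FTnAu sums below the other 4. Only 13 of the 33 listed genes had enough UMIs to test, since 1 UMI was worth up to 9.91 CPM. The median log2 fold change of the 10 ER genes tested was -0.49 against 5xFAD_PBS and -0.60 against WT_PBS, and -0.01 for 5xFAD_PBS against WT_PBS. Hspa5 had 68.6 and 19.8 CPM in 5xFAD_Ab3FTnAu, against 127 and 122 CPM in 5xFAD_PBS and 84.6 and 103 CPM in WT_PBS, a log2 fold change of -1.38 ± 0.47 against 5xFAD_PBS. Hsp90b1 had 119 and 69.3 CPM in 5xFAD_Ab3FTnAu, against 158 and 189 CPM in 5xFAD_PBS and 190.2 and 164 CPM in WT_PBS, with -0.85 ± 0.35. Calr had 31.2 and 39.6 CPM in 5xFAD_Ab3FTnAu, against 48.2 and 128 CPM in 5xFAD_PBS and 92.7 and 56.0 CPM in WT_PBS, with -1.31 ± 0.62. The 2 5xFAD_Ab3FTnAu values were the lowest for all 3 genes. They rest on few UMIs, 11 and 2 for Hspa5, 19 and 7 for Hsp90b1 and 5 and 4 for Calr. Xbp1 had 3 and 1 UMIs in 5xFAD_Ab3FTnAu, against 6 and 0 UMIs in 5xFAD_PBS and 19 and 4 UMIs in WT_PBS. Atf4 had 0 and 1 UMIs in 5xFAD_Ab3FTnAu, against 2 and 4 UMIs in 5xFAD_PBS and 25 and 0 UMIs in WT_PBS. Both had too few UMIs to compare the groups, and Ddit3 had 19 UMIs in all.

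Among the cytosolic chaperones of astrocyte-like cells, Hspa8 had 68.6 and 79.3 CPM in 5xFAD_Ab3FTnAu, against 21.9 and 42.6 CPM in 5xFAD_PBS and 79.0 and 81.8 CPM in WT_PBS. Its 5xFAD_PBS values lay below the other 4, with a log2 fold change of -1.37 ± 0.44 for 5xFAD_PBS against WT_PBS (edgeR adjusted p = 0.236) and 1.19 ± 0.53 for 5xFAD_Ab3FTnAu against 5xFAD_PBS (edgeR adjusted p = 0.538). Hsp90aa1 had 6.24 and 59.4 CPM in 5xFAD_Ab3FTnAu, against 0 and 36.5 CPM in 5xFAD_PBS and 99.9 and 34.4 CPM in WT_PBS, from 1 and 6 UMIs in 5xFAD_Ab3FTnAu, against 0 and 6 UMIs in 5xFAD_PBS and 124 and 8 UMIs in WT_PBS. Most of its UMIs were in WT_PBS sample 1, which also held most of the astrocyte-like cells. The values of Hspa8 rest on 11 and 8 UMIs in 5xFAD_Ab3FTnAu and 5 and 7 UMIs in 5xFAD_PBS. Hsp90ab1 had 74.9 and 99.1 CPM in 5xFAD_Ab3FTnAu, against 83.2 and 91.3 CPM in 5xFAD_PBS and 143 and 164 CPM in WT_PBS, with both WT_PBS values above the other 4. Hspa1a, Hspa1b and Dnajb1 had 8, 2 and 8 UMIs in all.

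**Figure D3:**
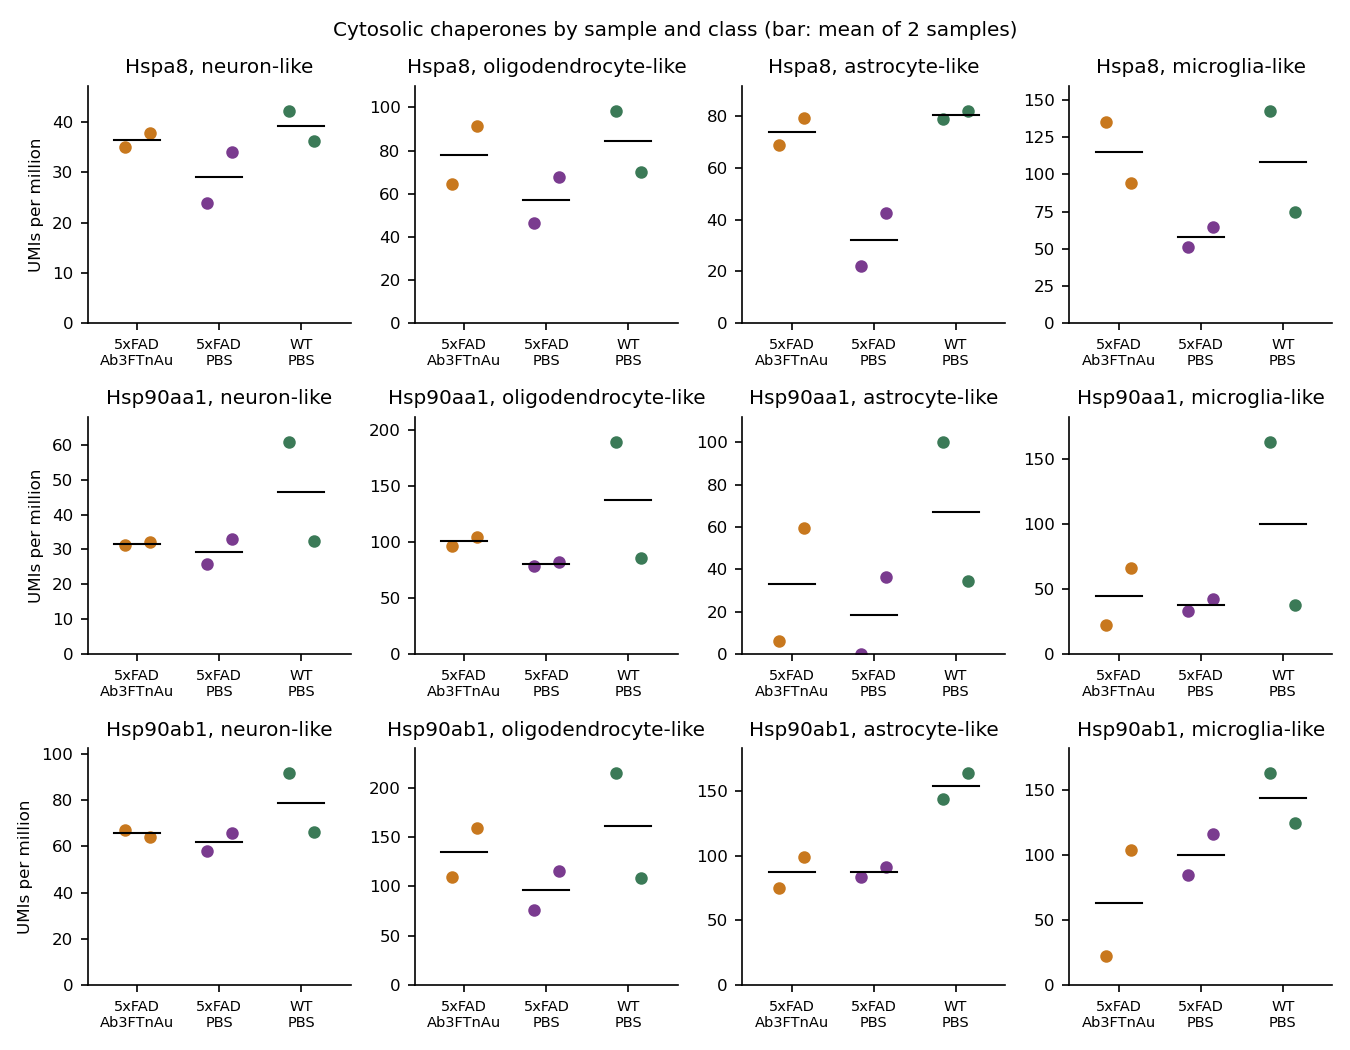
CPM of the cytosolic chaperone genes Hspa8, Hsp90aa1 and Hsp90ab1 (rows) in the 4 classes (columns), 1 point per sample and a bar at the mean of the 2 samples. WT_PBS sample 1 is the highest point for Hsp90aa1 in every class.

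In astrocyte-like cells edgeR called 0 of the 13 listed genes tested in each comparison. The share of all genes called was 0.134% for 5xFAD_Ab3FTnAu against 5xFAD_PBS, 3.65% for 5xFAD_Ab3FTnAu against WT_PBS and 0% for 5xFAD_PBS against WT_PBS. At an unadjusted p under 0.05, 4 listed genes passed in the first comparison, 3 in the second and 3 in the third, with backgrounds of 8.67%, 18.3% and 11.4%. The 3 of 5xFAD_PBS against WT_PBS were the cytosolic genes Hspa8, Hsp90aa1 and Hsp90ab1. DESeq2 called 0 listed genes, beside 0.0153%, 1.57% and 0% of all genes. Both 5xFAD_Ab3FTnAu samples were below both 5xFAD_PBS samples in 5 of the 10 ER genes, beside 18.4% of all genes. Without WT_PBS sample 2, Hsp90aa1 was called lower than in WT_PBS both for 5xFAD_Ab3FTnAu and for 5xFAD_PBS. Neuron markers summed to 1278 to 1466 CPM in 5xFAD_Ab3FTnAu, 1297 to 1387 in 5xFAD_PBS and 1420 to 2152 in WT_PBS, with all 15 detected; their part in the result was not tested.

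In microglia-like cells, the resident immune cells that gather at plaques, the ER genes summed to 1939 and 1913 CPM in 5xFAD_Ab3FTnAu, against 2530.5 and 2647 CPM in 5xFAD_PBS and 2657 and 2504 CPM in WT_PBS. The 5xFAD_Ab3FTnAu sums were again below the other 4, which lay close together. These sums rest on 36 and 80 cells in 5xFAD_Ab3FTnAu, 270 and 318 cells in 5xFAD_PBS and 112 and 56 cells in WT_PBS, and 1 UMI was worth 2.23 to 22.5 CPM. The median log2 fold change of the 13 ER genes tested was -0.54 against 5xFAD_PBS and -0.72 against WT_PBS, and -0.05 for 5xFAD_PBS against WT_PBS. Hspa5 had 90.2 and 141 CPM in 5xFAD_Ab3FTnAu, against 177 and 167 CPM in 5xFAD_PBS and 102 and 224 CPM in WT_PBS: its 5xFAD_Ab3FTnAu values were below both 5xFAD_PBS values and overlapped those of WT_PBS. Hsp90b1 had 248 and 198 CPM in 5xFAD_Ab3FTnAu, against 367 and 345 CPM in 5xFAD_PBS and 420.3 and 349 CPM in WT_PBS, a log2 fold change of -0.77 ± 0.29 against 5xFAD_PBS. Calr had 45.1 and 113 CPM in 5xFAD_Ab3FTnAu, against 164 and 192 CPM in 5xFAD_PBS and 197 and 125 CPM in WT_PBS, a log2 fold change of -0.98 ± 0.41. For Hsp90b1 and Calr both 5xFAD_Ab3FTnAu values were below the other 4. The 5xFAD_Ab3FTnAu counts were small, at 4 and 15 UMIs for Hspa5, 11 and 21 for Hsp90b1 and 2 and 12 for Calr. Those of Pdia6 were 4 and 8 UMIs. Pdia6 had 90.2 and 75.4 CPM in 5xFAD_Ab3FTnAu, against 154 and 176 CPM in 5xFAD_PBS and 197 and 199 CPM in WT_PBS, also lowest in the 2 5xFAD_Ab3FTnAu samples, with a log2 fold change of -1.08 ± 0.41 against 5xFAD_PBS and -1.35 ± 0.45 against WT_PBS (edgeR adjusted p = 0.0547).

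Rarer genes could not be compared between groups in microglia-like cells. Xbp1 had 2 and 3 UMIs in 5xFAD_Ab3FTnAu, against 15 and 33 UMIs in 5xFAD_PBS and 2 and 5 UMIs in WT_PBS, and Atf4 had 0 and 3 UMIs in 5xFAD_Ab3FTnAu, against 15 and 13 UMIs in 5xFAD_PBS and 8 and 1 UMIs in WT_PBS. Ddit3 had 0 and 3 UMIs in 5xFAD_Ab3FTnAu, against 2 and 3 UMIs in 5xFAD_PBS and 1 and 0 UMIs in WT_PBS. The cytosolic gene Hspa8 had 135 and 94.3 CPM in 5xFAD_Ab3FTnAu, against 51.3 and 64.6 CPM in 5xFAD_PBS and 142 and 74.7 CPM in WT_PBS, with both 5xFAD_PBS values below the other 4. Hsp90ab1 had 22.5 and 104 CPM in 5xFAD_Ab3FTnAu, against 84.6 and 116 CPM in 5xFAD_PBS and 163 and 125 CPM in WT_PBS, and Hsp90aa1 had 1 and 7 UMIs in 5xFAD_Ab3FTnAu, against 13 and 19 UMIs in 5xFAD_PBS and 24 and 3 UMIs in WT_PBS. WT_PBS sample 1 was the highest for Hsp90aa1, Hsp90ab1 and Hspa8. In 5xFAD_Ab3FTnAu, Hspa8 rested on 6 and 10 UMIs and Hsp90ab1 on 1 and 11 UMIs. Hspa1a and Hspa1b had 0 UMIs in every sample and Dnajb1 had 7 in all.

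Microglia-like cells were the class with the highest share of all genes called for 5xFAD_PBS against WT_PBS, 12.4%. Of the 15 listed genes tested, 0 were called, and whether this differs from that share was not tested. For 5xFAD_Ab3FTnAu the share of all genes was 1.31% against 5xFAD_PBS and 8.94% against WT_PBS, with 0 listed genes in both. At an unadjusted p under 0.05, 4 listed genes passed against 5xFAD_PBS (background 10.1%), 3 against WT_PBS (background 20.6%) and 3 for 5xFAD_PBS against WT_PBS (background 24.2%). DESeq2 called 0 in the 3 comparisons, beside 0.433%, 4.54% and 1.55% of all genes. Both 5xFAD_Ab3FTnAu samples were below both 5xFAD_PBS samples in 7 of the 13 ER genes, beside 21.7% of all genes. With a looser cell filter edgeR called Hsp90aa1 and Hsp90ab1 lower in 5xFAD_PBS than in WT_PBS, Hsp90aa1 having too few UMIs to be tested with the stated filters, and Pdia6 and Hsp90ab1 lower in 5xFAD_Ab3FTnAu than in WT_PBS. The shares of all genes with that filter, and the calls made with 1 sample left out, are given in the closing section. Over the settings run, the log2 fold change of Hspa8 for 5xFAD_PBS against WT_PBS was -1.26 to -0.35. That of Hsp90b1 for 5xFAD_Ab3FTnAu against WT_PBS was -2.51 to -0.48. Neuron markers summed to 1734 to 2187 CPM in 5xFAD_Ab3FTnAu, 1356 to 1517 in 5xFAD_PBS and 2417 to 2942 in WT_PBS, and microglia markers to 10750 to 10970, 15160 to 15650 and 13470 to 21470 CPM; their part in the result was not tested.

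Set side by side, the classes shared the direction for 5xFAD_Ab3FTnAu against 5xFAD_PBS. Of the 10 ER genes tested in all 4 classes, 8 had a negative log2 fold change in each of them (Calr, Canx, Dnajc3, Hsp90b1, Hspa5, Pdia3, Pdia6 and Sel1l) and 0 had a positive one in each. Of these signs, 2 are those of fitted values close to 0, where the mean CPM of 5xFAD_Ab3FTnAu was the higher: Sel1l in oligodendrocyte-like cells (-0.01 ± 0.20, with means of 139.9 CPM in 5xFAD_Ab3FTnAu and 136 CPM in 5xFAD_PBS) and Canx in microglia-like cells (-0.04 ± 0.27, with 317 CPM and 303 CPM). The 4 classes come from the same 4 libraries and are not independent. How many of all genes kept the same sign in all 4 classes was not counted, so the 8 of 10 has no background beside it. The 8 genes that hold an ERSE were singled out after their fold changes were known. A low median of these genes was thus built into the choice, and their values are only a description. Their median log2 fold change was -0.70 in neuron-like, -0.69 in oligodendrocyte-like, -0.81 in astrocyte-like and -0.65 in microglia-like cells, from 8, 7, 6 and 6 tested genes. The ER genes without the motif or without a promoter entry had medians of -0.19, -0.27, -0.25 and -0.30, from 17, 15, 4 and 7 genes. Where they were tested, this set includes Herpud1 and Dnajb11, which hold the related ERSE-II. The cytosolic genes had medians of 0.08, 0.40, 0.76 and 0.22 in the same order of classes, from 7, 4, 3 and 2 genes.

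For 5xFAD_PBS against WT_PBS the cytosolic genes had the lower medians. The ER genes had -0.12 in neuron-like, 0.00342 in oligodendrocyte-like, -0.01 in astrocyte-like and -0.05 in microglia-like cells, while the cytosolic genes had -0.46, -0.58, -1.37 and -0.80. WT_PBS sample 1 was the highest sample of the cytosolic list in every class; without it the cytosolic medians were -0.19, -0.14, -1.18 and -0.32. Over all settings run the cytosolic medians stayed below 0, at -0.72 to -0.19 in neuron-like, -0.84 to -0.14 in oligodendrocyte-like, -1.86 to -0.86 in astrocyte-like and -1.26 to -0.01 in microglia-like cells. The comparisons share samples, so their values are not independent of each other. Whether a glial class differed from neuron-like cells was tested as an interaction. For 5xFAD_Ab3FTnAu against 5xFAD_PBS, 0 of 78 tests of listed genes passed, beside 0.572% over all genes, and 8 passed at an unadjusted p under 0.05, beside 8.16%. For 5xFAD_PBS against WT_PBS, 0 of 78 passed, beside 1.14%, and 5 at an unadjusted p under 0.05, beside 9.97%. DESeq2 called 0 listed genes in both.

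**Figure D4:**
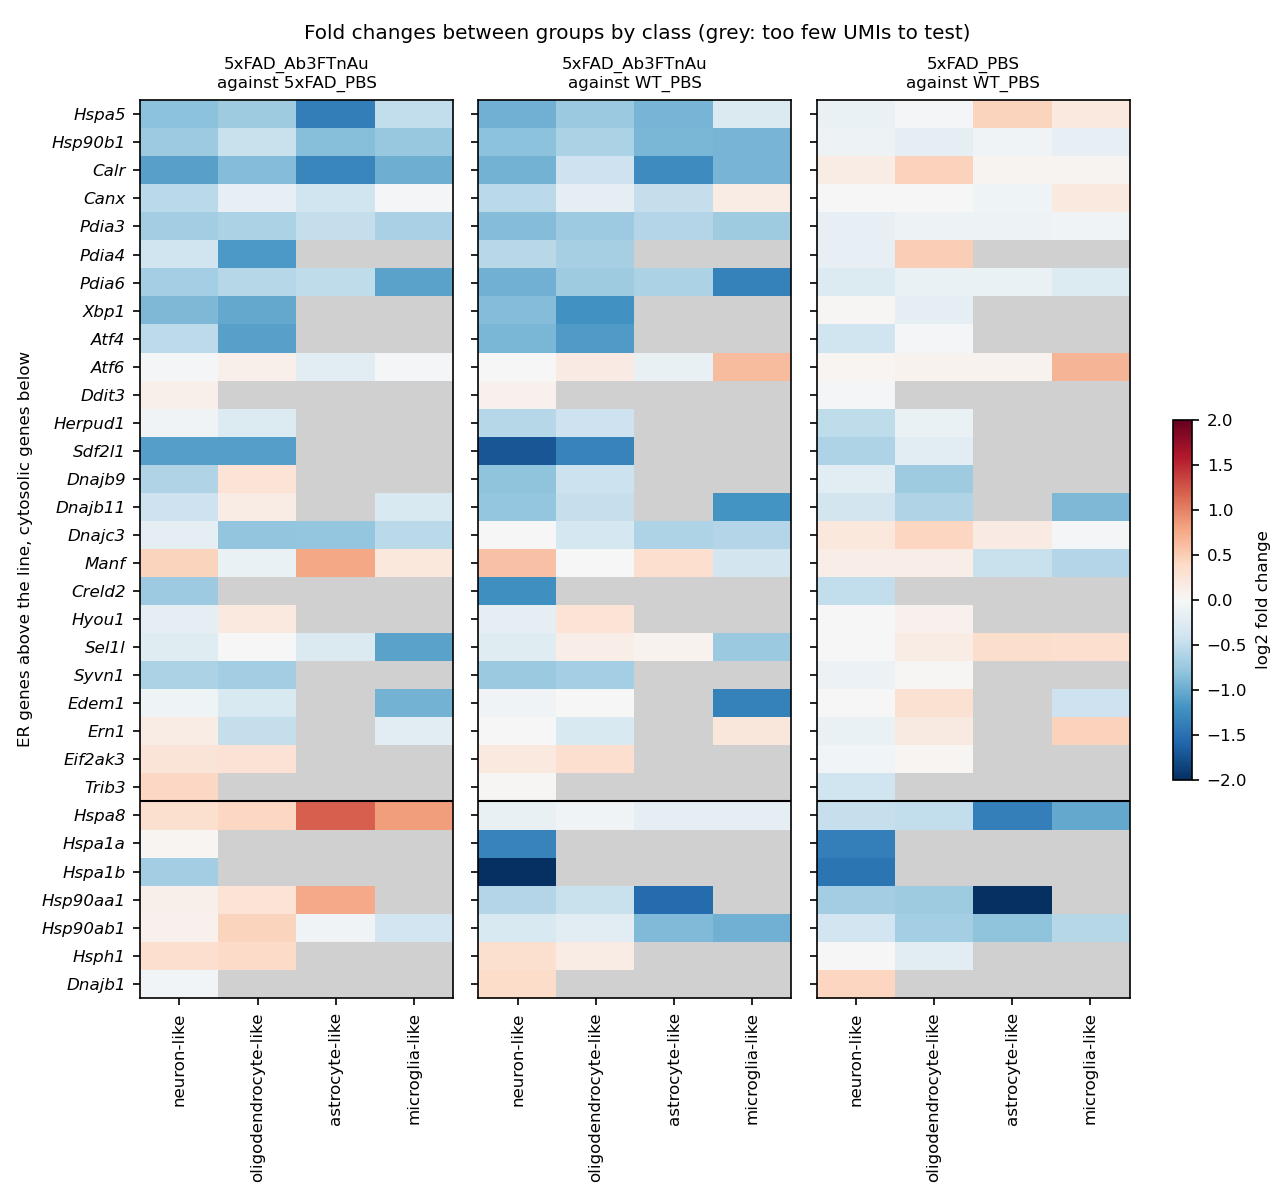
Log2 fold changes between groups for the 32 listed genes tested in at least 1 class, ER genes above the line and cytosolic genes below, in the 4 classes. Blue is lower and red higher in the group named first, colours end at 2 on either side, and grey marks genes with too few UMIs. Most ER rows are blue in the 2 left panels, which both have 5xFAD_Ab3FTnAu as their first group.

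By edgeR on all 6 samples, listed genes were called only between cell classes, where large shares of all genes were called too. The classes were tested in 1 fit of all 24 sums of sample and class with the sample as a block. ER genes took a larger share of the UMIs in microglia-like cells, at 1913 to 2657 CPM in sum over the 6 samples, than in oligodendrocyte-like (1171 to 1631), astrocyte-like (1070 to 1661) and neuron-like cells (844 to 1167). The microglia-like range lay above those of the other 3 classes. Of the 33 listed genes 26 had enough UMIs for this fit; Ddit3, Creld2, Trib3, Hspa1a, Hspa1b, Dnajb1 and Hspb1 had not. Each class was set against the mean of the other 3, so the 4 contrasts share their data. Of the 26 genes, 21 were called in neuron-like, 9 in oligodendrocyte-like, 7 in astrocyte-like and 15 in microglia-like cells. The shares of all genes called were 71%, 57.8%, 42.7% and 58.6%. Only in neuron-like cells was the share of listed genes called above that of all genes. UMIs of all 15 neuron markers were found in each glial class, and their part in these differences was not tested. In cells with no mitochondrial UMI alone, 16 listed genes could be tested. Of these 16, 13 were called in neuron-like, 7 in oligodendrocyte-like, 2 in astrocyte-like and 6 in microglia-like cells. The shares of all genes called there were 65.6%, 54.7%, 35.2% and 55.1%. Of the 21 calls in neuron-like cells described below, 14 genes were tested there and 13 were called. In oligodendrocyte-like cells 8 of the 9 were tested and 6 were called. In astrocyte-like cells 4 of the 7 were tested and 2 were called. In microglia-like cells 10 of the 15 were tested and 6 were called. All of these tested genes kept their direction. They had been picked by their calls in all cells, of which these cells are a part, so the recurrence is not independent.

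Microglia-like cells had 14 listed genes higher and 1 lower, all of them ER genes, beside 25.7% and 32.9% of all genes. Edem1, which feeds misfolded glycoproteins to degradation, averaged 105 ± 40.3 CPM in microglia-like cells (SD, n = 6 samples, as for the means below), against 40.7 ± 7.36 CPM in oligodendrocyte-like, 16.5 ± 7.41 CPM in astrocyte-like and 10.9 ± 0.826 CPM in neuron-like cells. Its log2 fold change was 2.04 ± 0.20 (edgeR adjusted p = 1.07e-11), and microglia-like cells were the highest class in 6 of 6 samples. Sdf2l1 followed with 1.74 ± 0.29 (edgeR adjusted p = 3.18e-06) and a mean of 28.8 ± 17.5 CPM, then Pdia3 with 1.10 ± 0.13 (edgeR adjusted p = 3.06e-09) and 216 ± 50.2 CPM. The sensor kinase gene Ern1 had 0.95 ± 0.19 (edgeR adjusted p = 4.33e-05) and the factor it activates, Xbp1, had 0.94 ± 0.27 (edgeR adjusted p = 0.00311). Xbp1 had only 2 and 3 UMIs in 5xFAD_Ab3FTnAu and 2 and 5 in WT_PBS, beside 15 and 33 in 5xFAD_PBS. The gene that was lower was Sel1l, the scaffold of the degradation ligase, with -0.50 ± 0.15 (edgeR adjusted p = 0.00369). Its microglia-like value was below all other classes in 3 of 6 samples and above the mean of the other 3 classes in 3. Among cells with no mitochondrial UMI, Sel1l, Pdia6, Atf6 and Dnajb11 were tested and not called. Atf4, Atf6, Hspa5, Hsp90b1, Calr, Canx, Pdia6, Herpud1 and Dnajb11 were the other ER genes that were higher. The calls of Xbp1 and Atf6 were lost without 5xFAD_PBS sample 2, that of Atf4 without 5xFAD_PBS sample 1, and that of Dnajb11 without 5xFAD_PBS sample 2 or either WT_PBS sample.

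Neuron-like cells had 2 listed genes higher and 19 lower, beside 36.2% and 34.8% of all genes. The log2 fold changes farthest below 0 were those of Edem1 (-1.69 ± 0.15), Sdf2l1 (-1.58 ± 0.20), Pdia4 (-1.40 ± 0.16), Herpud1 (-1.05 ± 0.13) and Pdia3 (-0.99 ± 0.10), with edgeR adjusted p from 1.21e-12 to 8.49e-09. Pdia4 averaged 9.08 ± 2.32 CPM in neuron-like cells and was the lowest of the 4 classes in 6 of 6 samples. Of the ER genes, Atf6 was higher, with 0.62 ± 0.09 (edgeR adjusted p = 3.17e-07) and a mean of 136 ± 5.76 CPM. Of the cytosolic genes, Hsph1, an exchange factor for HSP70, was higher, with 0.71 ± 0.17 (edgeR adjusted p = 2.89e-04), while Hspa8, Hsp90aa1 and Hsp90ab1 were lower, with -0.75 ± 0.10, -0.53 ± 0.15 and -0.45 ± 0.11. The call of Hsp90aa1 was lost without WT_PBS sample 1.

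Oligodendrocyte-like cells had 8 listed genes higher and 1 lower, beside 28.6% and 29.3% of all genes. Hsp90aa1 led with 1.34 ± 0.15 (edgeR adjusted p = 9.35e-10), a mean of 106 ± 41.6 CPM against 60.7 ± 52.0 CPM in microglia-like, 39.4 ± 36.7 CPM in astrocyte-like and 35.8 ± 12.5 CPM in neuron-like cells, and was highest in this class in 6 of 6 samples. Hsp90ab1 (0.57 ± 0.12) and Hspa8 (0.50 ± 0.12) were also higher, so 3 of the 4 cytosolic genes tested were. Among ER genes Edem1 (0.68 ± 0.17), Dnajb9 (0.53 ± 0.20), Dnajb11 (0.51 ± 0.13), Sel1l (0.51 ± 0.11) and Hsp90b1 (0.33 ± 0.10) were higher and Atf6 (-0.30 ± 0.11) lower. The call of Dnajb9 was lost without sample 2 of any 1 of the 3 groups, and that of Atf6 without 5xFAD_PBS sample 2.

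Astrocyte-like cells had 2 listed genes higher and 5 lower, beside 22.1% and 20.7% of all genes. The disulfide isomerase Pdia4 had 1.11 ± 0.23 (edgeR adjusted p = 9.58e-05) with a mean of 38.3 ± 12.9 CPM, and was the highest class in 4 of 6 samples. Dnajc3, the BiP co-chaperone that also restrains PERK, had 1.03 ± 0.14 (edgeR adjusted p = 7.38e-08) with a mean of 126 ± 30.6 CPM, the highest class in 5 of 6 samples. Edem1 (-1.02 ± 0.26), Atf6 (-0.82 ± 0.15), Xbp1 (-0.75 ± 0.31), Ern1 (-0.55 ± 0.21) and Dnajb11 (-0.45 ± 0.18) were lower. The call of Xbp1 was lost without sample 2 of 5xFAD_Ab3FTnAu or 5xFAD_PBS or either WT_PBS sample, that of Ern1 without either sample of 5xFAD_Ab3FTnAu or WT_PBS, and that of Dnajb11 without either sample of 5xFAD_PBS or WT_PBS. With DESeq2 4 listed genes were called in this class, Pdia4 and Dnajc3 higher and Atf6 and Edem1 lower.

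**Figure D5:**
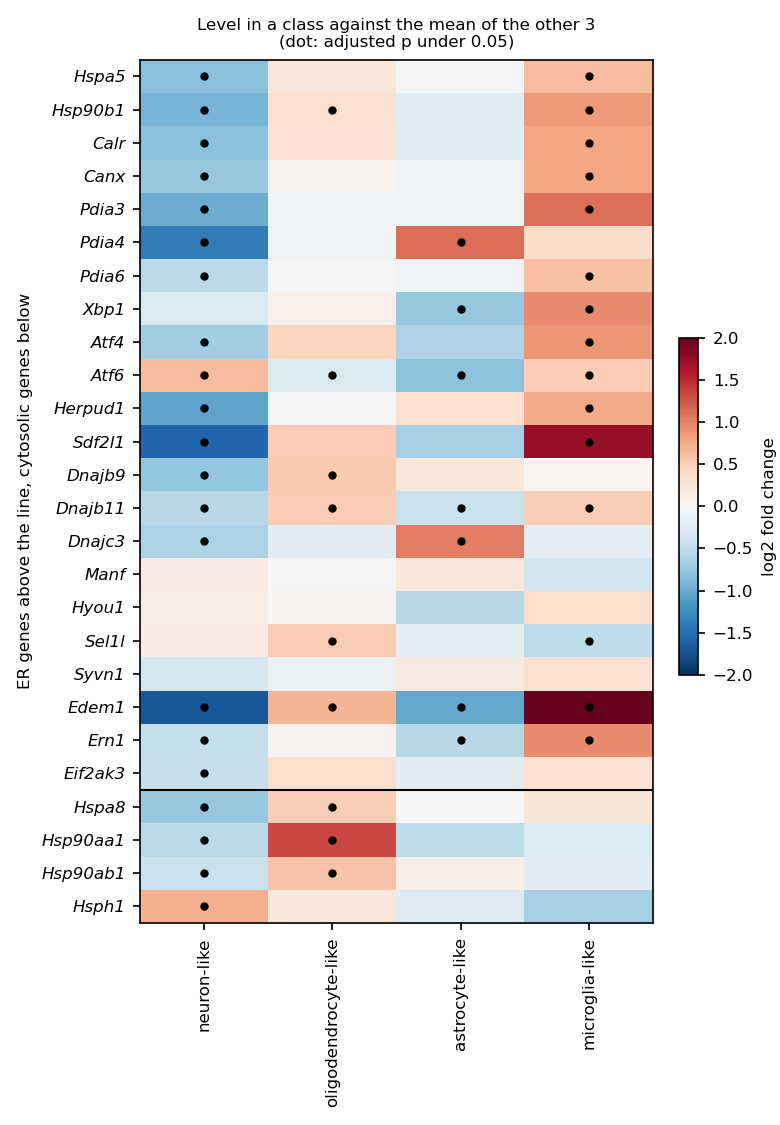
Log2 fold change of each class against the mean of the other 3 for the 26 listed genes tested, ER genes above the line and cytosolic genes below; a dot marks an edgeR adjusted p under 0.05 and colours end at 2 on either side. The microglia-like column is mostly red among ER genes, the neuron-like column mostly blue, and Hsp90aa1 stands out in the oligodendrocyte-like column.

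Wider lists of 32 other ER pathway genes and 20 other cytosolic chaperone genes gave few calls between groups. Selenok, which encodes a selenoprotein of the ER membrane, was lower in 5xFAD_Ab3FTnAu than in WT_PBS in oligodendrocyte-like cells, with a log2 fold change of -1.18 ± 0.21 (edgeR adjusted p = 0.0178), and in astrocyte-like cells, with -1.68 ± 0.34 (edgeR adjusted p = 0.0193). Selenos, a selenoprotein of the degradation machinery, was lower in oligodendrocyte-like cells, with -1.11 ± 0.27 (edgeR adjusted p = 0.0488). The share of all genes called for 5xFAD_Ab3FTnAu against WT_PBS was 2.05% in oligodendrocyte-like and 3.65% in astrocyte-like cells. Both calls of Selenok were lost without either 5xFAD_Ab3FTnAu sample, and that of Selenos without any 1 of 5 of the 6 samples, the exception being WT_PBS sample 2. Cryab, a small heat shock protein of oligodendrocytes, differed between oligodendrocyte-like and neuron-like cells in its log2 fold change for 5xFAD_PBS against WT_PBS by 1.19 ± 0.31 (edgeR adjusted p = 0.0357); this call was lost without any 1 of the 5xFAD_PBS or WT_PBS samples. Of the other ER genes in neuron-like cells, 25 of 32 had a negative log2 fold change for 5xFAD_Ab3FTnAu against 5xFAD_PBS, with a median of -0.20, and 0 were called. At an unadjusted p under 0.05, 10 were lower and 1 higher, beside 21.8% of all genes, and DESeq2 called 2, beside 8.24%. For the other cytosolic genes the median was 0.01.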

How the data were processed

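Hippocampal RNA was counted in 6 10x 3′ libraries from mice 6 months old, 2 per group. The deposited values are raw UMI counts per gene and barcode, and the authors made them with Cell Ranger (version 7.1.0, per the file headers) on mm10, per the labels; Seurat 4.3.0.1 is named in the submitters' processing notes. Intron counting: not given in the sources used here. Of 50224 barcodes, 44736 had 500 or more genes, 1000 or more UMIs and no more than 15% mitochondrial UMIs, and were kept. No doublet caller was run; a cell whose markers were not clearly of 1 class was left unassigned, and leaving out the top 5% of cells by UMIs was an alternative. Cells were put in a glial class with at least 4 marker UMIs from at least 3 of its markers, and in the neuron-like class with at least 10 UMIs from at least 4 markers, with 3 times the UMIs of any other glial list and no fewer than the neuron list (glia), or 5 times those of any glial list (neurons); 41264 cells were classed. Within a class, UMIs were added up by sample, and these sums were tested over all genes that passed filterByExpr with edgeR 4.0.16 (R 4.3.3, limma 3.58.1; TMM factors, quasi-likelihood F test, all 6 samples, Benjamini-Hochberg, threshold 0.05). The standard error of a log2 fold change was its size over the square root of F. Cell classes were compared in 1 fit with sample as a block, and class by group as an interaction. The alternatives were DESeq2 1.42.0, RLE size factors, no filter on low counts, other gates and filters, barcodes with and without mitochondrial UMIs, leaving out each sample, a replicate block and, chosen after seeing the data, fits of 2 groups alone. Scripts used Python 3.11.15 with numpy 2.4.6, scipy 1.17.1, pandas 2.3.3 and matplotlib 3.10.9, and were tested on simulated data. The depth of a class sets the value of 1 UMI, so rare genes in the small glial classes have coarse values. The members and lists were chosen with earlier results of these data known. By the rule for named genes, per-sample values go to listed genes called between groups and to 12 fixed genes given in every class. They also go to up to 5 genes each way with the largest difference between classes. Outside this rule, they are given for Canx, Pdia6, Manf, Creld2, Eif2ak3 and Trib3 in neuron-like cells and Pdia6 in microglia-like cells. Genes of the wider lists that were called between groups are named without per-sample values. The rest of the 33 are named to account for the list. Promoter sequences are from RefSeq, GRCm38.p6.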

Additional observations from a re-analysis of the deposited data

How the results depend on the processing

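No listed gene was called between groups by edgeR on all 6 samples, and other settings changed this as follows. For 5xFAD_Ab3FTnAu against 5xFAD_PBS, neuron-like cells had 3 calls with DESeq2 and 15 with the 4 samples compared alone, beside 8.24% and 31.2% of all genes, and oligodendrocyte-like cells had 1 in the fit of 4, beside 1.9%. For 5xFAD_Ab3FTnAu against WT_PBS, neuron-like cells had 11 calls with DESeq2, 8 with no filter on low counts, and 3 each with the stricter marker gate, with barcodes without mitochondrial UMIs and without the top 5% of cells; the shares of all genes called were 18.5%, 7.86%, 3.32%, 4.86% and 3.89% in that order. In microglia-like cells the same comparison had 1 call with the stricter gate, 2 with the looser cell filter and 1 with barcodes that have a mitochondrial UMI, beside 4.74%, 8.1% and 3.42% of all genes. For 5xFAD_PBS against WT_PBS, no filter gave 1 call each in astrocyte-like and microglia-like cells, beside 0.669% and 2.11%, and the looser filter 2 in microglia-like cells, beside 9.27%. Between classes, barcodes without mitochondrial UMIs gave 13 calls in neuron-like, 2 in astrocyte-like and 6 in microglia-like cells, beside 65.6%, 35.2% and 55.1%, with 16 listed genes tested in place of 26. Astrocyte-like cells had 4 with DESeq2 and 4 with RLE factors, beside 26.1% and 41.7%, and oligodendrocyte-like cells 14 with the looser filter, beside 59.7%. The cause was not tested.

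Leaving out each sample in turn gave 0 to 17 calls for 5xFAD_PBS against WT_PBS, 0 to 15 for 5xFAD_Ab3FTnAu against 5xFAD_PBS and 0 to 23 for 5xFAD_Ab3FTnAu against WT_PBS in neuron-like cells, with 0 to 6428, 0 to 6202 and 0 to 10298 of all genes called. In the same order it gave 0 to 5, 0 to 1 and 0 to 2 in oligodendrocyte-like cells, 0 to 1, 0 to 0 and 0 to 1 in astrocyte-like cells and 0 to 2, 0 to 0 and 0 to 1 in microglia-like cells. Of all genes it called at most 872, 222 and 1315 in oligodendrocyte-like, 318, 44 and 536 in astrocyte-like and 530, 118 and 414 in microglia-like cells. Between classes, 18 to 22 listed genes were called in neuron-like cells, beside 6112 to 7503 of all genes. Oligodendrocyte-like cells had 8 to 10, beside 5071 to 5963 of all genes. Astrocyte-like cells had 4 to 6, beside 3373 to 4405, and microglia-like cells 12 to 15, beside 5256 to 6110. The log2 fold change of Hsp90aa1 in neuron-like cells for 5xFAD_Ab3FTnAu against 5xFAD_PBS was -0.057 without 5xFAD_PBS sample 1. Of the named genes recomputed, the others that changed sign were in the same class, and none was called under the setting that changed it. Edem1 in that comparison was 0.067 with barcodes that have a mitochondrial UMI; Herpud1 was 0.061 with those that have none and -0.20 to 0.068 over the samples left out; Hspa5 for 5xFAD_PBS against WT_PBS was -0.32 to 0.080 over the samples left out, and was called lower without WT_PBS sample 2 (edgeR adjusted p = 0.0307). With the replicate number as a block 0 listed genes were called. The deviations of same-numbered samples correlated by -0.18 to 0.04 across genes, so no shared deviation was seen. Whether same-numbered samples shared a run or handling was not tested. The median log2 fold change of ER genes for 5xFAD_Ab3FTnAu against 5xFAD_PBS stayed below 0 in every setting run, from -0.59 to -0.29 in neuron-like, -0.53 to -0.17 in oligodendrocyte-like, -0.87 to -0.37 in astrocyte-like and -0.81 to -0.30 in microglia-like cells. That of the cytosolic genes took both signs in neuron-like (-0.06 to 0.28), astrocyte-like (-0.23 to 1.67) and microglia-like cells (-0.81 to 0.65). With no mitochondrial UMI, no listed gene had enough counts to test in astrocyte-like cells. The 36 and 80 microglia-like and 101 and 55 astrocyte-like cells of 5xFAD_Ab3FTnAu limit what can be seen there.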
